A study of Oryctolagus cuniculus with 6 samples.

Results

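Blastocysts recovered 6 days into development after an earlier vitrification were compared with untreated blastocysts of the same age. The comparison rests on the 3 arrays labelled as vitrified, out of 6 arrays in the study. All embryos were of the New Zealand White rabbit. Embryos of the vitrified group spent 2 min in 12.5% dimethyl sulphoxide with 12.5% ethylene glycol and 1 min in 20% of each at 20 °C before the straws went into liquid nitrogen. Straws were warmed at 20 °C, cryoprotectant was removed over 5 min with sucrose at 0.33 M, and embryos were transferred into recipient females, from which they were recovered at day 6. The untreated group developed in vivo without cryopreservation. The other 3 arrays held embryos slowly frozen in 1.5 M dimethyl sulphoxide at 0.3 °C per min to −35 °C, likewise transferred and set against untreated embryos. They served here to estimate the spread and the dye effect and to test the difference between the methods. Through the dye effect they also enter the fitted vitrified values, but not the ratios of single arrays. Vitrification, warming and transfer came together in the treated embryos, so their parts in a difference cannot be told apart. The stage at vitrification and the number of embryos per extract are not given in the sources used here.

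The rabbit blastocyst at day 6 is an expanded, free-floating vesicle that lies in uterine fluid shortly before it attaches. It consists of the trophectoderm, the outer epithelium that builds the placenta, an embryonic disc that descends from the inner cell mass, and the endoderm beneath it. Vitrification solidifies cells and medium as a glass, with concentrated cryoprotectants and fast cooling in place of ice formation. Serine synthesis, which supplies glycine, one-carbon units and nucleotide precursors, branches from glycolysis at 3-phosphoglycerate and runs through the enzymes PHGDH, PSAT1 and PSPH.

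Each array carried 1 vitrified and 1 untreated extract in different dyes. Cy5 marked the vitrified extract in replicates 1 and 3, and Cy3 marked it in replicate 2. Replicate 1 lay on the first slide, replicates 2 and 3 on the second. Of the spots, 44.7% to 58.0% passed the scanner software's test for a signal well above background in green, and 69.8% to 74.5% in red. The SD of the log2 ratios over the 30767 tested probes was 0.40 on the array of replicate 1, 0.33 on that of replicate 2 and 0.23 on that of replicate 3. Defining genes of the blastocyst were detected: the pluripotency factor POU5F1 and the trophectoderm factors GATA2, GATA3 and TFAP2A were well above background in both channels of all 3 arrays. CDX2, NANOG and SOX2 were not measured here. Among markers of white blood cells, PTPRC, CD3E, CD74, S100A8 and S100A9 were too dim to be tested. The other 11 on the array were tested. Of these, 10 were well above background in all 3 vitrified extracts and 6 in all 3 untreated ones. In the trophectoderm list, 14 genes passed in all 3 vitrified and 11 in all 3 untreated extracts. Red signals passed this test more often than green, and the vitrified extract was red in replicates 1 and 3. These counts therefore do not compare the extracts. RNA was taken from whole embryos, so that fewer cells of a type and less RNA per cell cannot be told apart.

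Vitrified embryos had more mRNA of PSAT1, the phosphoserine aminotransferase of serine synthesis, and of OTUD6A, a deubiquitinating enzyme of the OTU family. By log2 values, PSAT1 rose 1.36 on the called probe shown here, and OTUD6A 1.46, a fold of 2.76. In all, 6 of the 30767 probes rose past an adjusted p of 0.05, which is 0.0195% of those tested, and they covered 2 named genes, 0.0246% of the 8137 measured, and 2 probes without a gene name. None fell past it, 0% of the same probes by limma, and the smallest adjusted p among lower probes was 0.144. At an unadjusted p under 0.05, 3073 probes were higher (9.99%) and 2273 lower (7.39%), where 5% in both directions together would pass by chance. With each array centred on its median in place of loess, that split turned to 1476 higher and 3221 lower. By the brightest probe of each of 8137 genes, 12 genes were more than 2-fold higher and 3 more than 2-fold lower.

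**Figure D1:**
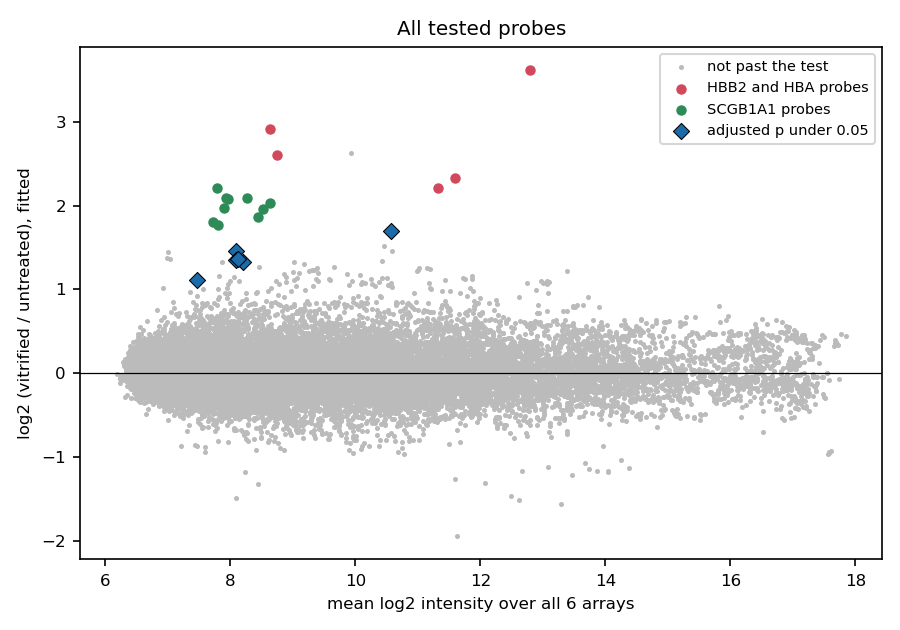
Fitted log2 change of vitrified over untreated embryos (vertical axis) against the mean log2 intensity over all 6 arrays (horizontal axis) for each of the 30767 tested probes. Blue diamonds are the 6 probes past an adjusted p of 0.05, all higher; the globin probes HBB2 and HBA (red) reached 3.61 and did not pass.

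PSAT1 was read by 7 probes, and all 7 lay above 0 on each vitrified array, as 20.4% of all tested probes did. Of these, 5 are shifted against each other by a few bases, so they read the same stretch of mRNA and are not separate evidence. The probe shown is A_04_P072595, at chr1:64727049-64727108 on the plus strand in the coordinates of the array files, whose build is not given in the sources used here. Capitals mark the 56 bases that all 5 tiled probes share.
PSAT1 A_04_P072595: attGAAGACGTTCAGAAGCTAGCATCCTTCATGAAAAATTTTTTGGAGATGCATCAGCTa
On this probe the log2 ratio of vitrified over untreated was 1.20, 1.31 and 1.61 on the arrays of replicates 1, 2 and 3. The fitted change was 1.36 ± 0.12 (SE, n = 3 arrays, adjusted p = 0.0270). The vitrified extract was the higher of the pair on every array, and the 3 ratios lay close together.

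A_04_P072594 at 1.35 and A_04_P072593 at 1.32 passed with the same adjusted p. The remaining tiled probes, A_04_P072596 at 1.32 and A_04_P072592 at 1.16, had an adjusted p of 0.0517. The other 2 PSAT1 probes lie further along, at chr1:64727906-64727965 and chr1:64728010-64728069, and read a brighter signal. The brightest, A_04_P002547, had log2 ratios of 0.78, 1.58 and 2.17 and a fitted change of 1.52 ± 0.23 (adjusted p = 0.144). Its log2 signal was 10.99, 11.78 and 11.82 in the vitrified and 10.21, 10.20 and 9.65 in the untreated channel. These 2 probes spread more between arrays than the tiled ones and were not called. Leaving out vitrified replicate 1 kept the calls of A_04_P072594 and A_04_P072593 (adjusted p = 0.0488) and lost that of A_04_P072595 (0.0597). Leaving out any of the other 5 arrays lost all 3 calls, with adjusted p-values from 0.0580 without frozen replicate 1 to 0.832 without vitrified replicate 2. All 3 calls were also lost with slide as a covariate (adjusted p = 0.0671 to 0.0688), plain background subtraction (0.0529), the vitrified arrays alone with a dye term (0.0654 to 0.0658), the deposited log ratios (0.282) and trend and robust eBayes (0.283). The untreated signal of A_04_P072595 passed the background test on 2 of 3 arrays.

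**Figure D2:**
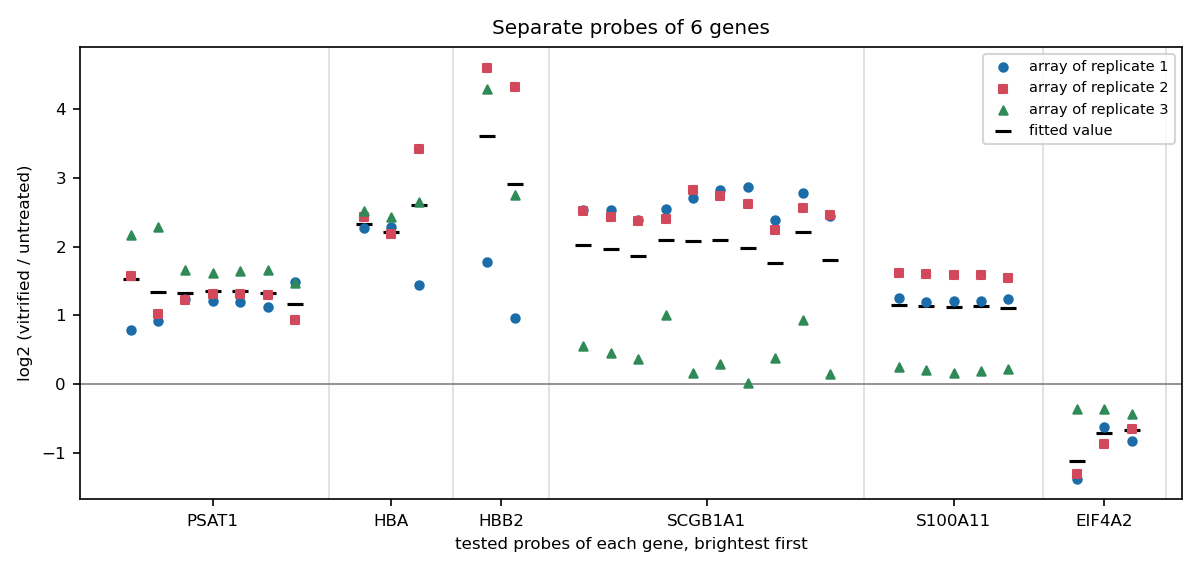
Log2 ratio of vitrified over untreated embryos (vertical axis) for every tested probe of 6 genes, brightest probe first, on the arrays of replicates 1 (circles), 2 (squares) and 3 (triangles), with the fitted value as a bar. The 7 PSAT1 probes lie above 0 on all 3 arrays, while the 10 SCGB1A1 and 5 S100A11 probes are near 2.5 and 1.2 to 1.6 on replicates 1 and 2 and much lower on replicate 3.

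The other enzymes around serine and glycine were read by 1 brightest probe each, and 8 of the 10 listed genes were measured. PSPH, which releases serine, was not among them. PHGDH, which commits 3-phosphoglycerate to the pathway, had log2 ratios of 0.95, 1.06 and 1.23 and a fitted change of 1.00 ± 0.16 (adjusted p = 0.144). Its single probe, shown because it reads the step before PSAT1, lies at chr13:44695059-44695118 on the minus strand.
PHGDH A_04_P078937: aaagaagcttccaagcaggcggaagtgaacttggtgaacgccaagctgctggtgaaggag
The vitrified signal was higher on each array by nearly the same amount. The untreated signal of PHGDH passed the background test on 2 arrays, and the change did not pass over all probes.

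SHMT2, the mitochondrial enzyme that turns serine into glycine, was at 0.74 ± 0.11 (0.51, 1.06 and 0.46, adjusted p = 0.144). Its cytosolic counterpart SHMT1 was at 0.35 (0.03, 0.58 and 0.08). Among enzymes of the glycine cleavage system, GLDC was at 0.50 (1.01, 0.53 and −0.11), while GCSH was at −0.33 and AMT at −0.38. GLYCTK, a glycerate kinase, was at 0.12. These 6 genes are given because the list is short, although the naming rule does not take them. Of the 8 measured genes, 6 were above 0 and 4 had an unadjusted p under 0.05 in that direction, against 49.2% above 0 and 9.27% of all 8137 genes. GCSH and AMT were at an unadjusted p under 0.05 in the other direction, 2 of 8 against 7.37% of all genes. The list had a median of 0.42, with 0.38, 0.55 and 0.05 on the 3 arrays, where the median of all genes was −0.00.

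Genes that cells raise when amino acids run short, targets of the factor ATF4, form a neighbouring list with 14 measured members. Their median was 0.11, and 8 were above 0. SLC7A5, a transporter of large neutral amino acids, was at 0.81 ± 0.23 (0.72, 1.01 and 0.39). CHAC1, which degrades glutathione, was at 0.57 ± 0.11 (0.28, 0.65 and 0.67, adjusted p = 0.144), and SLC1A5, a glutamine transporter, at 0.51 ± 0.13 (0.42, 0.39 and 0.84). VLDLR was at −0.43 ± 0.15. None passed over all probes. The median of this list was −0.02 with the deposited log ratios, so its direction rests on the scaling. The folate and one-carbon enzymes, which take up the product of serine cleavage, had a median of −0.07 over 14 genes. MTHFD2, the mitochondrial folate enzyme, was at −0.31 ± 0.12, AHCY at −0.32 ± 0.11 and ALDH1L1 at 0.35 ± 0.10.

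Enzymes of amino acid breakdown and of the urea cycle lay mostly below 0. Of 12 measured genes, 11 had a negative value, 5 of them with an unadjusted p under 0.05 where 7.37% of all genes had one. The median was −0.27, with −0.25, −0.29 and −0.01 on the 3 arrays. OTC, which makes citrulline in the urea cycle, was at −0.74 ± 0.17 (−1.02, −0.82 and −0.24, adjusted p = 0.157). The 3 OTC probes lay between −0.77 and −0.72. In slowly frozen embryos, set against untreated sources of the same names, the brightest OTC probe was at −1.34 (adjusted p = 0.0425). ARG2, the mitochondrial arginase, was at −0.49 ± 0.13 (−0.24, −0.49 and −0.65), and BCAT1, a transaminase of branched-chain amino acids, at −0.36 ± 0.11. The negative direction of the list median held with median centring (−0.35) and with the deposited log ratios (−0.26). For slowly frozen embryos the list median was −0.24, with 4 of the 12 genes above 0.

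OTUD6A was read by a single probe at chrX:48624883-48624942 on the plus strand, which is shown because it is the other named gene past the test.
OTUD6A A_04_P057217: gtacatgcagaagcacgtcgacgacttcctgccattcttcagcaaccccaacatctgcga
Its log2 ratios were 1.25, 1.50 and 1.58, and the fitted change was 1.46 ± 0.11 (adjusted p = 0.0270). Vitrified signals of 8.39, 8.76 and 9.17 faced untreated signals of 7.14, 7.26 and 7.58 on the log2 scale. The untreated signal passed the background test on 1 of 3 arrays, so the fold rests on a dim control. With the deposited log ratios the value was 2.48 and did not pass (adjusted p = 0.231). The call was also lost with the vitrified arrays alone and a dye term (adjusted p = 0.0535), with slide as a covariate (0.0564) and with trend and robust eBayes (0.351). It was lost without vitrified replicate 2 (adjusted p = 0.665), without frozen replicate 2 (0.1002) and without frozen replicate 3 (0.0966).

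The largest called change belonged to A_04_P034922, which the files pair with an Ensembl transcript but with no gene name and no position. It is shown because of that size.
A_04_P034922: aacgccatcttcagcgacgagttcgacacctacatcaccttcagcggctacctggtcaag
Its log2 ratios were 1.38, 1.65 and 1.85, with a fitted change of 1.69 ± 0.15 (adjusted p = 0.0270), and both channels were well above background on all 3 arrays. A_04_P006396, at chr12:26552410-26552469, had ratios of 1.09, 1.01 and 1.29 and rose 1.11 ± 0.10 (adjusted p = 0.0270). Its untreated signal was well above background on 1 of 3 arrays. Both probes were also higher in slowly frozen embryos, at 2.22 and 1.56, as was OTUD6A at 1.74, all past the adjusted threshold. PSAT1 was not, with −0.02 for A_04_P072595 and −0.25 for its brightest probe. The arrays of both methods give the untreated source the same name for the same replicate number. Whether 1 extract was hybridised on both is not stated in the sources used here, so the 2 sets of values may not be independent. A_04_P034922 lost its call without any single array other than that of vitrified replicate 3, and A_04_P006396 without any single array. With the deposited log ratios A_04_P006396 was at 2.94 and not called.

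Globins, which carry oxygen in red blood cells, had the largest values of all named genes, and none passed the test. Probes of both are shown because of that size. HBB2, a beta globin, lies at chr1:146237830-146237889 on the minus strand, and capitals in the probe of HBA, the alpha globin, mark the 48 bases shared with its neighbouring probe.
HBB2 A_04_P001081: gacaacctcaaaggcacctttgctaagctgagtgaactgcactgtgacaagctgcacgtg
HBA A_04_P003481: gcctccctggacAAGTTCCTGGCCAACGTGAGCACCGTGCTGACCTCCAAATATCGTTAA
HBB2 had log2 ratios of 1.78, 4.61 and 4.29 and a fitted change of 3.61 ± 0.67 (adjusted p = 0.144). Its vitrified signals were 13.21, 16.84 and 15.15 and its untreated signals 11.44, 12.23 and 10.86 (log2). Every vitrified extract was above every untreated one on this probe. In slowly frozen embryos HBB2 was at 1.92, with ratios of 3.60, 1.25 and 0.76.

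HBA had ratios of 2.27, 2.42 and 2.52 on its brightest probe and a fitted change of 2.33 ± 0.32 (adjusted p = 0.144). The 3 arrays lay close together on this probe and on the one that overlaps it. The HBA probe A_04_P048372, which does not overlap them, spread more, with ratios of 1.45, 3.42 and 2.66 and a fitted change of 2.61 ± 0.38. Fitted on the vitrified arrays alone with the dye term, HBA was at 2.41 and passed (adjusted p = 0.00534). It also passed without frozen replicate 1 (2.40, adjusted p = 0.00231), the array on which HBA was at 2.33 while the other frozen arrays were at 0.47 and 0.53. Leaving out any other single array did not bring HBA past the threshold.

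The rest of the red cell list did not share this size. ALAS2, which starts heme synthesis in red cells, was at 0.75 ± 0.25 (0.05, 1.45 and 0.53), and EPOR, the erythropoietin receptor, at 0.35 ± 0.11. The membrane genes SLC4A1 and EPB42 were at −0.07 and −0.00, and each passed the background test on 1 or 2 untreated and 2 vitrified extracts. HBQ1 was at 0.18. These 3 genes fall outside the naming rule. Over the 8 measured genes the summed linear signal was 4719 to 11270 in untreated and 18060 to 147200 in vitrified extracts, a ratio of 3.22, 13.1 and 10.0 on the 3 arrays. HBB2 and HBA made up most of this sum in every extract, so the ratio describes them more than the rest of the list. GATA1, KLF1 and AHSP were not measured here. The summed signal of 11 measured white cell markers had ratios of 1.11, 0.68 and 0.93. Whether blood on the embryos or transcripts of their own gave the globin signal was not tested.

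SCGB1A1 had the next largest value among named genes after the globins. It encodes uteroglobin, the main protein that the rabbit uterus releases around the blastocyst. It was read by 10 overlapping probes, of which the brightest is shown with the 41 bases common to all 10 in capitals.
SCGB1A1 A_04_P003570: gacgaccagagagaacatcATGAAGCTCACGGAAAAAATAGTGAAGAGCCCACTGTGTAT
The ratios on this probe were 2.53, 2.52 and 0.55, with a fitted change of 2.03 ± 0.32 (adjusted p = 0.144). Replicate 3 stood apart on all 10 probes, whose fitted changes ran from 1.77 to 2.21. Without vitrified replicate 3 the value was 2.52 and passed (adjusted p = 0.0451). In slowly frozen embryos, set against untreated sources of the same names, this probe was at 1.51, with ratios of 1.25, 2.00 and 0.78. The difference between the methods was 0.52 by limma (adjusted p = 0.835).

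WFDC2, a secreted protein with a protease inhibitor fold, was at 1.08 ± 0.26 with ratios of −0.08, 1.80 and 0.91. SPP1, osteopontin, an adhesion protein that the uterine epithelium secretes, was at 0.68 ± 0.16 (0.78, 0.90 and 0.13), but its untreated signal passed the background test on 0 of 3 arrays. Against the lowest signal that did pass, SPP1 was at least 1.36-fold higher. In slowly frozen embryos SPP1 was at 0.72. SCGB3A1, another secretoglobin, was at 0.21 ± 0.10. Of 12 measured genes of uterine epithelium and secretions 10 were above 0, and the list median was 0.05, since 7 of the 12 lay between −0.21 and 0.06. The summed signal of the list was 1.28, 2.41 and 1.49 times the untreated one. ESR1 and HSD17B2 of the same list were too dim to be tested. Markers of uterine stroma and vessels had 12 of 13 genes above 0 with a median of 0.14 and summed ratios of 1.04, 1.20 and 1.11. Whether uterine tissue or fluid carried over with the embryos contributed was not tested.

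A further set of single genes, with values of about 2-fold, did not pass either. CYP2A11, a cytochrome P450, was at 1.37 ± 0.25 (1.58, 1.99 and 0.22), its untreated signal well above background on 1 of 3 arrays. S100A11, a calcium-binding protein of membranes and the cytoskeleton, was at 1.16 ± 0.20 (1.24, 1.61 and 0.24). PFN1, profilin, which supplies actin monomers for filament growth, was at 1.09 ± 0.23 (1.46, 1.33 and 0.25). In all these genes the arrays of replicates 1 and 2 were high and that of replicate 3 was low.

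RBPMS, an RNA-binding protein, was at 1.06 ± 0.27 (2.07, 0.78 and 0.43), and C16H19ORF53, of unknown role here, at 1.02 ± 0.15. MDK, the growth factor midkine, was at 0.98 ± 0.15, ARL6IP1, of the endoplasmic reticulum, at 0.98 ± 0.23, and UCP2, a mitochondrial carrier, at 0.96 ± 0.18. ARL6IP1 had 7 probes, of which the lowest was at −0.05. SELENOM, a selenoprotein, was at 0.92, PAPSS1, which makes the sulphate donor, at 0.92, SNRPD2, of the spliceosome, at 0.91, GABARAP, of autophagy, at 0.90, and PPM1F, a protein phosphatase, at 0.89 ± 0.11 (0.88, 1.095 and 0.51, adjusted p = 0.123). UBE2S was at 0.86, TRIR and TRIM28 at 0.84, and ACTN1 at 0.81. Of the 265 genes with a positive value on all 3 arrays and an unadjusted p under 0.01, 206 had their smallest ratio on replicate 3. Their median was 0.55, 0.65 and 0.22 on the arrays of replicates 1, 2 and 3. HP, haptoglobin, was also more than 2-fold higher by its fitted value and was chosen after its values were seen: its ratios of 0.30, 2.51 and −0.41 had mixed signs. Only the array of replicate 2 was above 2-fold for HP.

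**Figure D3:**
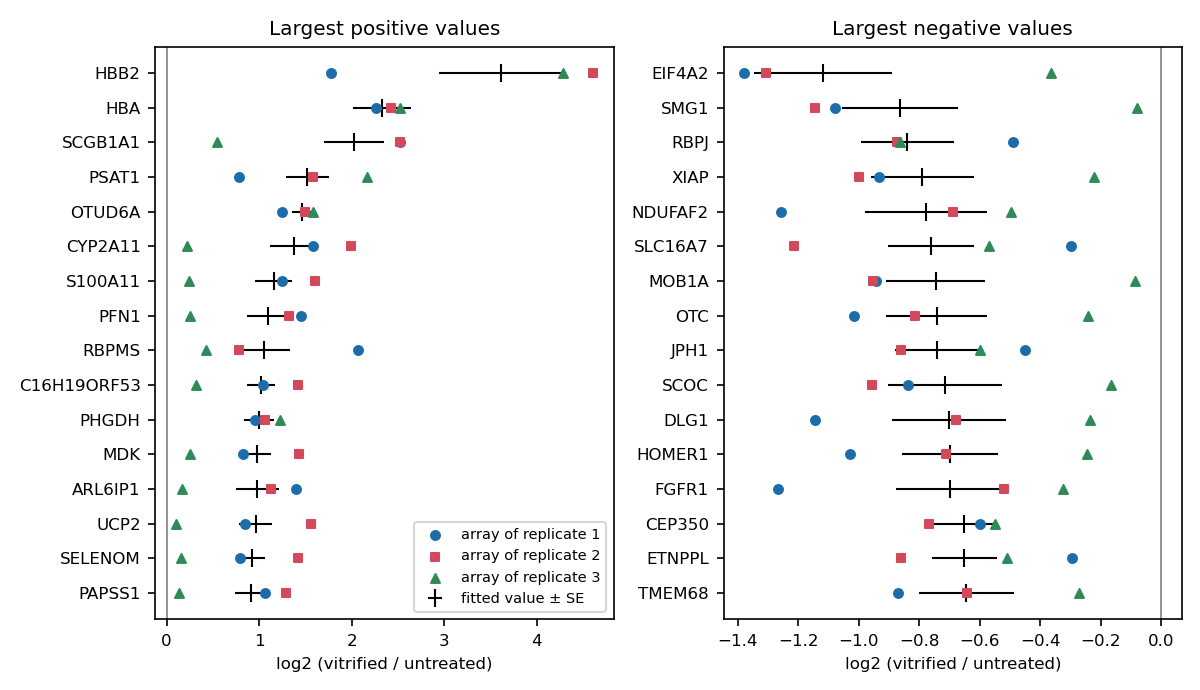
Log2 ratio of vitrified over untreated embryos (horizontal axis) on the arrays of replicates 1 (circles), 2 (squares) and 3 (triangles), with the fitted value and its SE, for the 16 genes with the largest positive values (left) and 16 with the largest negative values (right) among those reported here. HBA, OTUD6A, PHGDH and CEP350 show little spread between arrays, while replicate 3 is closest to 0 for most others.

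Lower values were smaller and none passed. EIF4A2, an RNA helicase of translation initiation, had ratios of −1.38, −1.31 and −0.36 and a fitted change of −1.12 ± 0.23 (adjusted p = 0.148). Its probe at chr14:78842180-78842485 spans more genome than its 60 bases, and the 20 bases in capitals are shared with the probe beside it.
EIF4A2 A_04_P004148: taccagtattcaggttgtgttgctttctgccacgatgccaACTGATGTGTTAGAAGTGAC
The other 2 probes of EIF4A2 were at −0.71 and −0.67, and all 3 were below 0 on each array.

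SMG1, a kinase of nonsense-mediated mRNA decay, was at −0.86 ± 0.19 (−1.08, −1.14 and −0.08), and its 7 probes ran from −0.86 to −0.29. RBPJ, the DNA-binding partner of Notch, was at −0.84 ± 0.15 (−0.49, −0.87 and −0.86, adjusted p = 0.144). XIAP, an inhibitor of caspases, was at −0.79 ± 0.17 (−0.93, −1.001 and −0.22), and at −0.75 in slowly frozen embryos. RBPJ was low on all 3 arrays, while SMG1 and XIAP were low on replicates 1 and 2.

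NDUFAF2, an assembly factor of respiratory complex I, was at −0.78 ± 0.20, and SLC16A7, a carrier of pyruvate and lactate, at −0.76 ± 0.14. MOB1A, of the Hippo pathway, was at −0.75 ± 0.16, JPH1 at −0.74 ± 0.14 and SCOC at −0.72 ± 0.19. DLG1, HOMER1 and FGFR1, the last a receptor for fibroblast growth factors, were each at −0.70. CEP350, a centrosome protein, was at −0.65 ± 0.10 with ratios of −0.60, −0.77 and −0.55, and OTUD3, a deubiquitinase, at −0.62 ± 0.10 with −0.60, −0.74 and −0.53. In these last 2 genes the arrays differed little, and the adjusted p was 0.144 for both. ETNPPL, TMEM68, WBP4, TFRC, ACTR2, ACAA2, RPA1, CLCN5 and OPA1 were between −0.65 and −0.60. IPO7, a nuclear import receptor, was at −0.89 ± 0.26, with 0.05 on replicate 3.

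Among genes below a 2-fold decrease, ITM2A and TFPI stood beside EIF4A2 and were chosen after their values were seen. ITM2A, a membrane protein, had ratios of −2.58, −0.62 and −0.15 on its brightest probe and a fitted value of −1.13 ± 0.46 (adjusted p = 0.270). TFPI, an inhibitor of blood coagulation, had ratios of −2.41, −0.67 and −0.30 and a fitted value of −1.18 ± 0.50 (adjusted p = 0.280). In both, the array of replicate 1 held most of the difference. Over the 136 genes with a negative value on all 3 arrays and an unadjusted p under 0.01, the median was −0.51, −0.58 and −0.22 on the 3 arrays.

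The measured genes among heat shock proteins and chaperones, which fold proteins, lay mostly below 0. The list holds 39 genes, and HSP90AA1 was among those not measured. Of 25 measured genes, 21 had a negative value, against 4131 of all 8137 genes, and 17 were negative on all 3 arrays, against 17.8% of all genes. None was positive on all 3. The negative genes include TCP1 and all measured CCT genes, at −0.36 to −0.17. These are related chaperonin genes, so the counted genes are not all separate evidence. The median was −0.21, with −0.11, −0.19 and −0.21 on the 3 arrays, −0.31 with median centring and −0.22 with the deposited log ratios. HSPD1, the mitochondrial chaperonin, was at −0.33 ± 0.10 (−0.11, −0.46 and −0.35), DNAJA2, a co-chaperone, at −0.33 ± 0.10 (−0.39, −0.36 and −0.13), HSPH1 at −0.31 ± 0.11 (−0.41, −0.21 and −0.36) and DNAJC2 at −0.29 ± 0.11. The unadjusted p was under 0.05 for 6 of the 25 genes, all lower, against 7.37% lower over all genes, and none was called over all probes. The median of replicate 3 was not the smallest in size here. HSPA5, the chaperone of the endoplasmic reticulum, was at 0.00 ± 0.17, and its list of folding and stress genes of that organelle had a median of 0.00 over 18 genes. PDIA4, a disulphide isomerase, had the smallest p of them, at 0.80 ± 0.13, with 7 probes from 0.15 to 0.80.

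Genes of oxidative stress had 17 of 22 values above 0 and a median of 0.10, which was 0.04 with median centring. GSTP1, a glutathione transferase, was at 0.52 ± 0.13, GPX1, a glutathione peroxidase, at 0.31 ± 0.10, KEAP1, the sensor that restrains the oxidative stress response, at 0.38 ± 0.15 and MGST3 at −0.32 ± 0.12. SOD1, which removes superoxide, was at 0.05 ± 0.10. Apoptosis genes had a median of −0.05 over 15 members, with XIAP as the single gene at an unadjusted p under 0.05 and BAX at −0.06 ± 0.18. The DNA damage list had a median of −0.03 with 10 of 18 genes below 0, and at an unadjusted p under 0.05 it had 1 higher and 2 lower genes. The higher one, CDKN1A, an inhibitor of the cell cycle, was at 0.63 ± 0.14 (0.86, 0.74 and 0.21). In the list of osmotic response and water channels SLC5A3, an importer of the osmolyte inositol, was at −0.62 ± 0.17. None of these lists had a member past the adjusted test.

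Trophectoderm genes had 11 of 14 values above 0 and a median of 0.15, with −0.04, 0.30 and 0.08 on the arrays. GATA2 was at 0.72 ± 0.14 (0.74, 1.05 and 0.07, adjusted p = 0.144), TFAP2A at 0.66 ± 0.15 (0.87, 0.83 and 0.10), KRT8, a keratin of epithelia, at 0.36 ± 0.17 (−0.14, 1.00 and −0.02) and GATA3 at 0.14 ± 0.14. GATA2 and TFAP2A were higher on all 3 arrays, KRT8 on replicate 2. Without vitrified replicate 2 the list median was −0.11. Pluripotency genes had a median of −0.05 over 10 members, and POU5F1 was at −0.09 ± 0.22 (−0.65, −0.17 and 0.63).

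Endoderm and yolk sac genes differed between the arrays. Their median was −0.44 on the array of replicate 1, which lay on the first slide, and 0.19 and 0.26 on those of replicates 2 and 3 on the second. The fitted median was −0.05 over 16 genes. Of the 16 genes, 10 were below 0 on replicate 1 and above 0 on replicates 2 and 3, as were 860 of all 8137 genes (10.6%), a pattern noticed after the values were seen. Among the 10, APOA1 had ratios of −1.45, 0.33 and 0.61, RBP4 −1.34, 0.10 and 0.71 and APOM −1.23, 0.15 and 0.49. Others did not share it: AFP had ratios of 0.34, −0.39 and 0.32, LRP2 0.61, 0.20 and 0.06 and DAB2 0.33, 0.80 and 0.24. These 6 genes were chosen after their values were seen. The number of endoderm cells in each extract was not measured, and slide and replicate 1 cannot be told apart here.

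**Figure D4:**
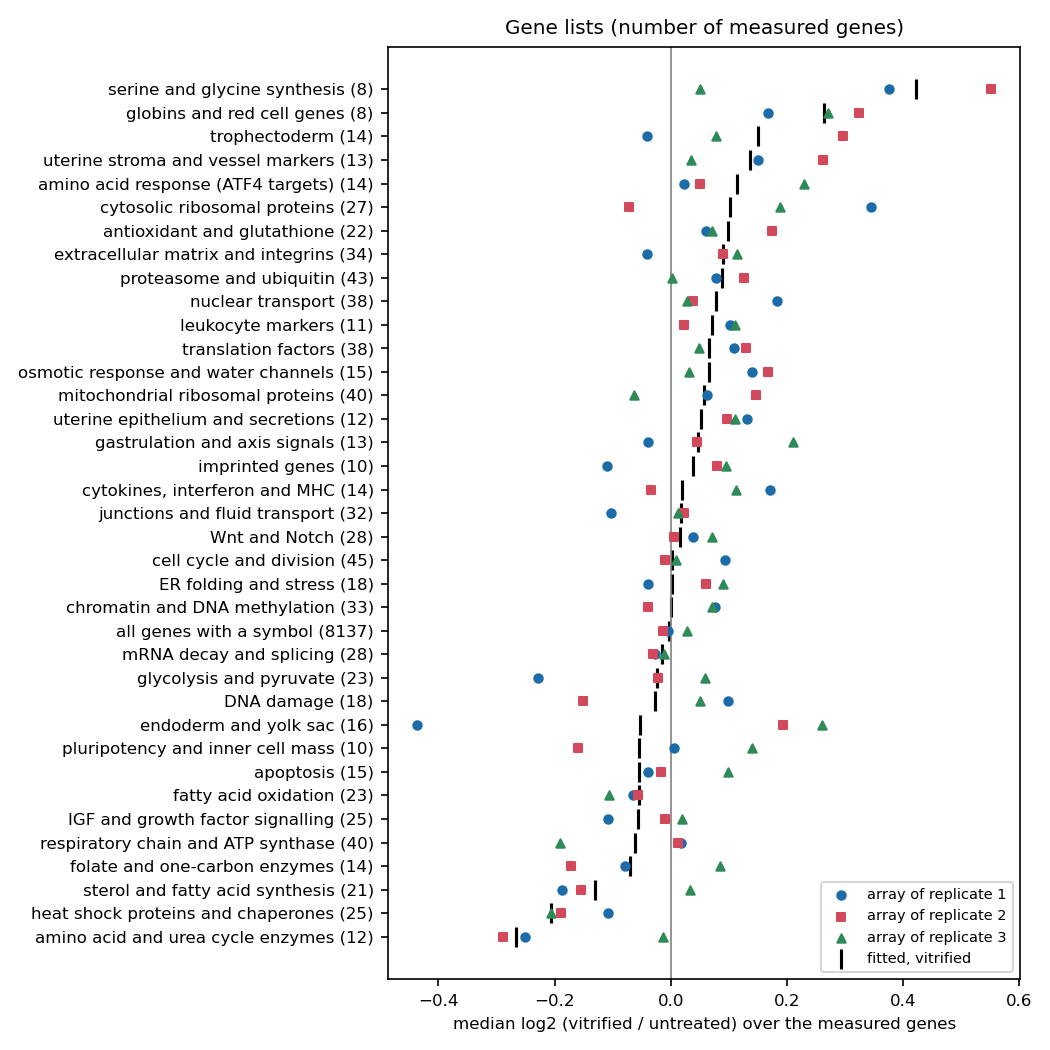
Median log2 ratio of vitrified over untreated embryos (horizontal axis) over the measured genes of each list, with their number in brackets, on the arrays of replicates 1 (circles), 2 (squares) and 3 (triangles) and as fitted (black bar). The serine and glycine list is highest at 0.42, the amino acid and urea cycle list lowest at −0.27, and the endoderm and yolk sac list is widest, from −0.44 to 0.26.

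Energy metabolism showed small values in both directions. Of 23 genes of fatty acid oxidation 17 were below 0, with a median of −0.05. The subunits of the mitochondrial trifunctional protein, HADHA and HADHB, were at −0.48 ± 0.11 (−0.51, −0.61 and −0.17) and −0.44 ± 0.10 (−0.07, −0.68 and −0.34), HADH at −0.39 ± 0.10 and the thiolase ACAA2 at −0.61 ± 0.16. These 4 enzymes, the members of the list with the smallest p, were below 0 on each array, and none passed over all probes. Other enzymes of beta-oxidation did not share this: ACADVL was at 0.05 (0.13, 0.15 and −0.18) and ACADM at −0.05 (0.11, −0.14 and −0.17).

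In the respiratory chain list 29 of 40 genes were below 0 with a median of −0.06. SDHD, a subunit of complex II, was at −0.55 ± 0.14, NDUFB5, of complex I, at −0.41 ± 0.11 and COX5B, of complex IV, at 0.64 ± 0.20. Glycolysis had 11 of 23 genes above 0. GAPDH was at 0.50 ± 0.13 with ratios of 0.54, 0.55 and 0.57, TPI1 at 0.52 ± 0.11, PGK1 at −0.46 ± 0.16 and ALDOC at −0.45 ± 0.16. GAPDH, often taken as a reference gene, was thus higher on all 3 arrays by the same amount, and ACTB, another reference, was at 0.18 ± 0.19 after the dye term. Its ratios of 1.68, −0.90 and 0.84 changed sign with the dye, as they did on the frozen arrays (1.60, −0.93 and 0.86). The probes of ACTB ran from −0.48 to 0.18.

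Genes of protein synthesis and turnover had medians near 0. The proteasome and ubiquitin list had 33 of 43 genes above 0 and a median of 0.09, which was −0.00 with 21 above 0 under median centring. Translation factors had 25 of 38 above 0 and a median of 0.07, which was −0.02 under median centring. For both lists the direction therefore turns with the scaling. Among the single genes UBE2C, a ubiquitin-conjugating enzyme of mitosis, was at 0.57 ± 0.15, PABPC1, the poly(A)-binding protein, at 0.63 ± 0.14 and EIF4H, an initiation factor, at 0.43 ± 0.12. Ribosomal proteins of the cytosol had a median of 0.10 over 27 genes (−0.00 with median centring), with FAU at 0.61 ± 0.16 and RPL24 at −0.52 ± 0.16. Those of mitochondria had a median of 0.06 over 40 genes, with MRPL41 at 0.79 ± 0.20, MRPL1 at −0.52 ± 0.11 and MRPL47 at −0.41 ± 0.10.

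The difference between vitrified and slowly frozen embryos was tested in the same fit. No probe passed the adjusted threshold by limma (0%, smallest adjusted p = 0.224), and 2320 of 30767 had an unadjusted p under 0.05 (7.54%). The untreated sources may be shared, as said above. Values are vitrified minus frozen in log2. PSAT1 was at 1.77 ± 0.32 on its brightest probe: its frozen arrays were at −0.16, −0.24 and −0.39, all below the vitrified ones. PHGDH was at 1.30 and MDK at 1.14, and UBE2S at 1.56, with −0.71 in frozen embryos. APOA2, an apolipoprotein, was at 1.17, where it was 0.17 in vitrified embryos and −0.9996 in frozen ones. ANXA3, a membrane-binding annexin, was at 1.13, LIX1 at 1.33 and TNNC1, a troponin, at 1.41. For TNNC1 most of this lay in the frozen embryos, at −1.21. Its vitrified value was 0.20, with ratios of −0.91, 0.79 and 0.38.

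On the other side TRPV5, a calcium channel of epithelia, was at −1.34, ANGPTL4, a regulator of lipoprotein lipase, at −1.10, HADHA at −1.004, PRXL2A at −0.94, ABCB1, an efflux pump, at −0.91 and RBBP7, a histone-binding protein, at −0.82. In HADHA, PRXL2A and RBBP7 vitrified values were below 0 and frozen values above. Of the fatty acid oxidation list 9 of 23 genes were lower in vitrified than in frozen embryos at an unadjusted p under 0.05, where 3.44% of all genes were, and 1 was higher, where 4.28% were. The median of that list was −0.05 in vitrified and 0.24 in frozen embryos. Other lists had genes higher in vitrified than in frozen embryos at that threshold. These were 6 of 16 endoderm and yolk sac genes and 4 of 8 genes of serine and glycine synthesis. Of ATF4 targets 4 of 14 were higher, and of uterine stroma and vessel markers 4 of 13. No gene of these lists was lower at that threshold. None of these differences passed the adjusted test.

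**Figure D5:**
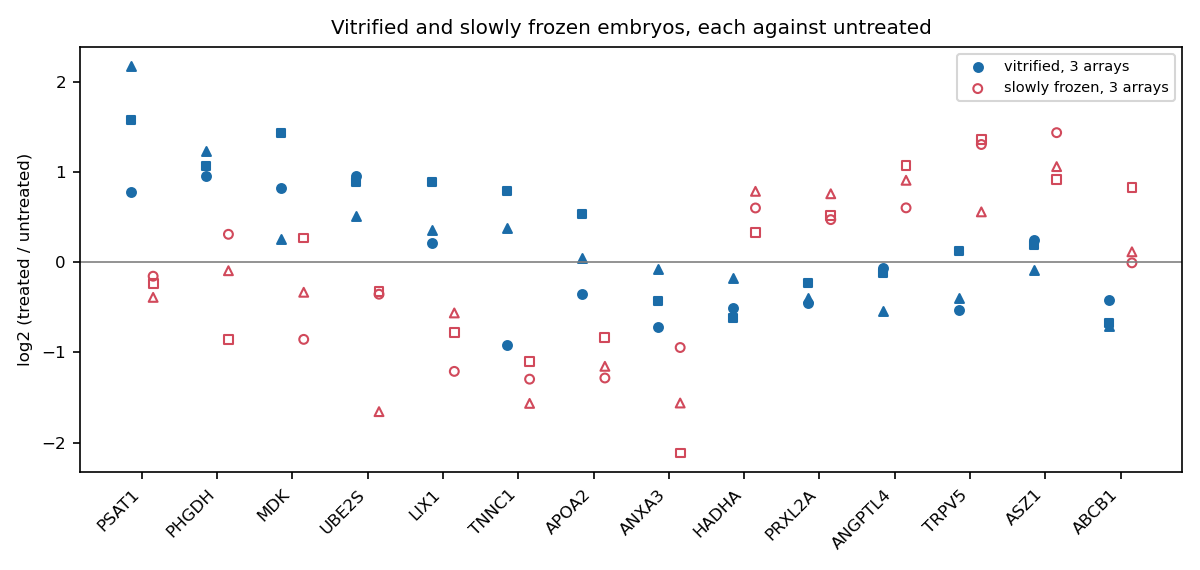
Log2 ratio of treated over untreated embryos (vertical axis) for 14 genes with large differences between the methods, in vitrified (filled, blue) and slowly frozen embryos (open, red), with circles, squares and triangles for replicates 1, 2 and 3. The 3 vitrified PSAT1 values, from 0.78 to 2.17, lie above the 3 frozen ones, and the 3 HADHA values, from −0.61 to −0.17, lie below the frozen ones; no gene passed the adjusted test of the difference.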

How the data were processed

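Total RNA (100 ng per label) of rabbit blastocysts was hybridised on 2-colour Agilent arrays. Spot intensity (mean signal and median local background, not normalised) was taken as deposited; per the file headers it comes from Agilent Feature Extraction 10.10.1.1. The deposited log10 ratio is red over green after that software's background subtraction and dye normalisation. From the intensities, limma 3.58.1 in R 4.3.3 applied normexp (offset 50) and loess with control spots at weight 0. Outlier spots were left out, which leaves 19 probes without a value on at least 1 array, and spots of a probe were averaged. Of 43603 probes, 30767 were well above background in at least 3 of 12 channel measurements and were tested. Log2 treated over untreated was fitted with a term for each treatment and for the dye over all 6 arrays (3 residual degrees of freedom), with eBayes and two-sided Benjamini-Hochberg adjusted p-values over all tested probes (threshold 0.05). SE is that of the fit. With the dye term, replicate 2, the only vitrified array with the treated extract in Cy3, weighs more in the fitted value than replicates 1 and 3. The frozen arrays share that term, so the fitted vitrified values are not independent of them. The labels call the replicates biological, and 3 arrays limit the precision. An unpaired exact test of 3 against 3 cannot go below p = 0.1, and a paired one over 3 ratios cannot go that low. No exact test was run.

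A symbol was given to 21780 probes through accessions, gene numbers and transcripts in the files and a rabbit table of assembly mOryCun1.1. A further 1311 had a gene number only, 213 matched several genes and 20299 none. Genes are given by their brightest probe, with 17321 tested probes covering 8137 genes. Named genes were those called, up to 25 per direction with the largest change at unadjusted p under 0.01 and equal sign on the 3 arrays, called or up to 4 smallest-p members of each of 36 lists, 25 fixed genes (5 of them not measured), up to 4 unnamed probes per direction, and up to 8 genes per direction for the difference from frozen embryos. Members, lists and tests were chosen with earlier results of these data known. The fit was tested on simulated data. Alternatives changed the background, scaling, source of the ratios, filter, dye term, arrays in the fit, replicate block, slide, spread prior, threshold and probe, and left out each array. Some members of the lists are not reported here.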

Additional observations from a re-analysis of the deposited data

How the results depend on the processing

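The count of probes called higher by limma, 6, was 2 with plain background subtraction (OTUD6A and A_04_P006396). It was 2 with the vitrified arrays alone and a dye term, neither of them among the 6. It was 0 with the deposited log10 ratios, 0 with probes well above background in all 12 measurements, 0 with slide as a covariate and 0 with eBayes using trend and robust settings, where 2264, 2258, 2863 and 2862 probes were higher at an unadjusted p under 0.05. Leaving out 1 array gave 0 to 16 calls: 5, 0 and 16 without vitrified replicates 1, 2 and 3, and 3, 0 and 0 without frozen replicates 1, 2 and 3. At an unadjusted p under 0.05, 989 probes were higher and 530 lower without vitrified replicate 2. The count called lower, 0, became 1 with median centring, 1 with the vitrified arrays alone without a dye term, and 0 to 1 on leaving out an array. A_04_P102787 was that probe in the first 2 settings, at −1.71 and −1.42. The cause was not tested. Same-numbered vitrified and frozen arrays deviated together with r = 0.017, 0.594 and 0.165. The dye swap fell on replicate 2 in both sets, so 0.594 may hold a dye effect. These values therefore cannot decide whether the number pairs the arrays, and the main fit left them unpaired. With a random replicate block 8 probes were higher. With a fixed replicate block the difference between methods kept 0 calls and had 2618 probes at an unadjusted p under 0.05, against 2320. Signs turned for 7 of 128 named genes and probes: SOD1 was at −0.0404 and HSPA5 at −0.0841 with median centring, and HSPA5 at −0.0102 with background subtraction and −0.0759 with slide. Leaving out an array gave −0.116 to 0.490 for KRT8, −0.105 to 0.583 for TNNC1, −0.0319 to 0.387 for ACTB, −0.0136 to 0.123 for SOD1, −0.0591 to 0.0753 for HSPA5, −0.293 to 0.118 for BAX and −0.412 to 0.229 for POU5F1. Of 576 list medians, 49 moved beyond the SD of the array medians. Dim untreated signals limit the folds of OTUD6A, A_04_P006396 and SPP1.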

Other observations

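Probes outside the naming of genes carried values that were noticed after they were seen. A_04_P072312, an unnamed probe at chr1:146246695-146246754 on the minus strand, lies on the same chromosome as HBB2 and had log2 ratios of 1.06, 3.89 and 2.71, with a fitted value of 2.63 ± 0.63 (adjusted p = 0.170). A_04_P033277, unnamed and without a position, is the reverse complement of the HBA probe A_04_P048372 over 53 bases with 2 mismatches. It had ratios of 0.60, 2.13 and 1.45 and a fitted value of 1.44 ± 0.26 (adjusted p = 0.144), with an untreated signal well above background on 1 of 3 arrays. The HBB2 probe A_04_P005566 is listed on the plus strand, opposite to the other HBB2 probe, and was at 2.91 ± 0.47 with ratios of 0.96, 4.33 and 2.76.

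Among unnamed probes with negative values, 3 lie together at chr7:6662037-6662190 and derive from an embryo cDNA clone by the descriptions in the files. A_04_P033206, A_04_P033202 and A_04_P033203 were at −1.56, −1.51 and −1.46. On the array of replicate 1 they were at −2.56, −2.65 and −2.53, and on that of replicate 3 between −0.33 and −0.17. A_04_P102787, at chr12:99901844-99901903, had nearly equal ratios of −1.57, −1.33 and −1.38, with a fitted value of −1.49 ± 0.19 (adjusted p = 0.144). Slowly frozen embryos gave −1.49 for the same probe, against untreated sources of the same names.

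Membrane and junction genes, not described above, were EPCAM at −0.51 ± 0.14, EZR at −0.39 ± 0.12 and CTNNA1 at −0.40 ± 0.12, with FXYD4, a regulator of the sodium pump, at 0.64 ± 0.14. Their list had 18 of 32 genes above 0. In the Wnt and Notch list WNT5B, a secreted ligand, had ratios of 0.33, 0.36 and 0.59, NUMB, an inhibitor of Notch, was at 0.63 ± 0.17 and ADAM10, a protease that cleaves Notch, at −0.67 ± 0.23. IGFBP2 and IGFBP5, which bind insulin-like growth factors, were at 0.39 ± 0.11 and 0.59 ± 0.10, each above 0 on all 3 arrays. In slowly frozen embryos they were at 0.40 and 0.67. None passed the adjusted test.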
